A study of Mus musculus with 3 samples.

Results

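The RNA of 10 genes for surface proteins that are targeted or studied in myeloid leukemia was examined in 3 mouse leukemias that lack miR-196b: Cd33, Cd47, Cd44, Cd38, Clec12a, Il1rap, Havcr2, Cd274, Cd86 and Cd80. The genes were picked by symbol, and all 10 were found among the 28074 named genes of the deposited table. Each of the 3 libraries (1 group) holds splenic cells of its own moribund mouse with acute myeloid leukemia, enriched for c-Kit, a receptor of immature blood cells. The genotype is labelled miR196b-/-, Dnmt3afl/fl, Flt3ITD/ITD with Mx1Cre, so in all 3 mice a microRNA of the Hoxa cluster was deleted, Dnmt3a was floxed and the Flt3 receptor carried an internal tandem duplication. Mx1Cre is a recombinase under an interferon-inducible promoter that is active in blood cells and in other tissues. The titles instead give Dnmt3a+/-, and the labels give neither age nor an inducing agent. The control leukemias with intact miR-196b belong to another series and were not analysed here, so no effect of the deletion was measured. The values describe the level of each gene and its spread between 3 mice, with no test between groups.

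Leukemic cells show the immune system a surface made of adhesion receptors, inhibitory receptors and ligands of lymphocyte receptors. CD47 is a signal against engulfment that macrophages read through SIRPα, and CD44 binds hyaluronan in the marrow niche. CD33, CLEC12A and TIM-3 (the Havcr2 protein) are myeloid receptors, IL1RAP is a coreceptor shared by several receptors of the IL-1 family, and CD38 is an enzyme that consumes NAD. PD-L1 (the Cd274 protein), CD86 and CD80 belong to the B7 family, whose members restrain or costimulate T cells.

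The microRNA deleted in these mice was set beside the genes by sequence, to show whether the letters of a seed match occur in them. The mature strand, from RefSeq (GRCm38.p6, chr6:52230129-52230150, minus strand), is printed with its seed, bases 2 to 8, in capitals.
mmu-miR-196b-5p: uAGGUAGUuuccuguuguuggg
The 7-mer that pairs with this seed, ACTACCT, was searched on the transcript strand in the 3′ UTRs of GENCODE M21. It occurred in 0 of the 10 genes, against 7.29% of the 11923 expressed genes with an annotated 3′ UTR. The longest 3′ UTR of a gene had a median length of 2354 nt among the 10 and 1145 nt among those expressed genes. The shorter 6-mer CTACCT, which pairs with bases 2 to 7 and lies within the 7-mer, occurred in 4 of the 10 genes against 30.9% of those expressed genes. In Cd33 and Cd86 it occurred at 2 positions each, and in Havcr2 at 1. The windows of these 3 genes (GRCm38, positions of the match) show it in capitals; these are letters in annotated transcripts, not measured sites, and they say nothing of regulation.
Cd33, chr7:43528224-43528229, minus strand: ttgaactctcagCTACCTatctatctagca
Cd33, chr7:43528621-43528626, minus strand: tataatgatcccCTACCTtctcctcctgcc
Cd86, chr16:36604641-36604646, minus strand: caagagccactcCTACCTgggctgccacag
Cd86, chr16:36604920-36604925, minus strand: atacctggacagCTACCTcttcagtcagga
Havcr2, chr11:46480424-46480429, plus strand: tctctgtgcctgCTACCTctctataacatg

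All 10 genes reached at least 1 TPM (a level scaled for transcript length and library size) in every mouse, a level reached in every mouse by 50.7% of named genes. They formed a high and a low tier of 5 genes each. Cd47, Cd44, Clec12a, Cd86 and Havcr2 had mean levels from 102.7 to 393 TPM, each above 98.2 TPM, the mean that 10% of expressed genes exceed. Cd33, Cd274, Il1rap, Cd80 and Cd38 had means from 3.25 to 11.0 TPM. The lowest value in the high tier was 78.6 TPM (Havcr2 in mouse 3) and the highest in the low tier was 13.3 TPM (Cd33 in mouse 3), so the tiers did not overlap in any mouse. Expressed genes are the 15181 with a mean of at least 1 TPM. Their median level was 4.19 ± 0.08 on the log2(TPM + 1) scale, against 5.19 ± 0.10 for the 10 genes (mean and SD of the medians in 3 mice). The median of the 10 genes falls in the gap between the tiers and is the level of no single gene. All 5 means of the low tier lay below 17.5 TPM, the median of the mean levels of expressed genes.

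**Figure D1:**
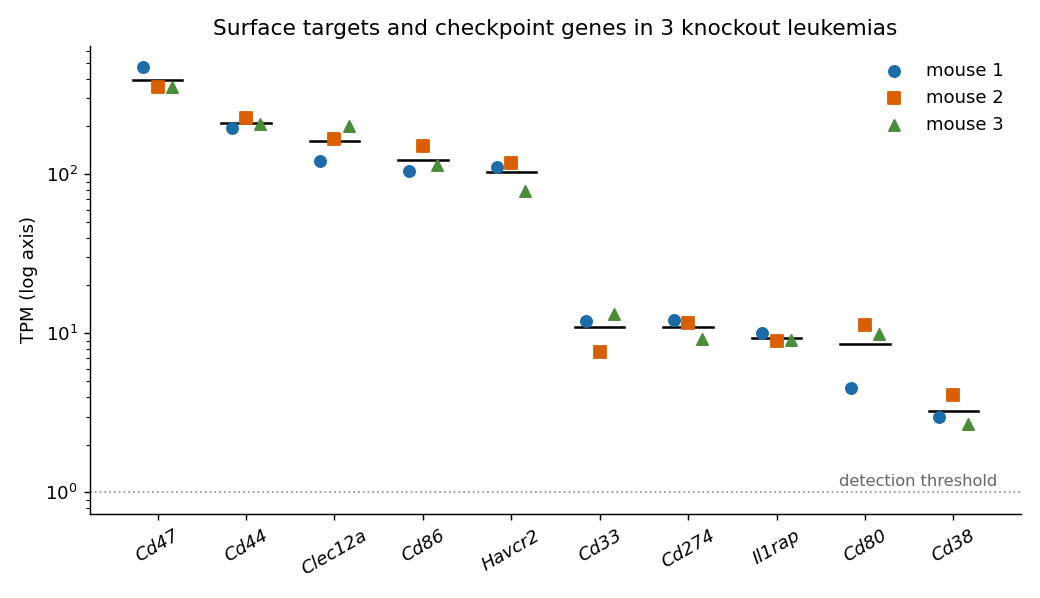
Level of each gene in TPM on a log axis, with 1 point per mouse and a bar at the mean of the 3 mice; the dotted line is the detection threshold of 1 TPM. The 5 genes on the left lie at or above 78.6 TPM and the 5 on the right at or below 13.3 TPM in every mouse.

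The libraries were checked against their labels before single genes were read. Kit, the enrichment target, stood at 139, 149 and 133 TPM in mice 1, 2 and 3, and Flt3 at 146, 157 and 106 TPM. Dnmt3a was at 52.2, 64.9 and 54.6 TPM, a value over the whole gene that does not check the floxed part. Of 10 progenitor genes listed for the labelled cell type, the 9 with a row were detected in every mouse, with sums of 3339, 2472 and 4176 TPM. Markers listed for other cell types were present at unequal levels, and bulk RNA does not show which cells they came from. Those of neutrophils summed to 2477, 6463 and 21460 TPM (8 of 8 detected in every mouse), those of dendritic cells to 399, 879.7 and 602 TPM (8 of 8), and those of monocytes and macrophages to 539, 674 and 945 TPM (8 of 11). The sums were 21.1 to 25.5 TPM for B cells (4 of 8), 59.5 to 113.6 TPM for T cells (5 of 8), 3.43 to 4.79 TPM for NK cells (1 of 5) and 33.1 to 88.2 TPM for erythroid cells (5 of 6). No marker with a row was at 0 in all 3 mice. In bulk RNA, fewer cells of a type and less RNA per cell cannot be told apart. The part of these cells in the levels below was not tested.

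**Figure D2:**
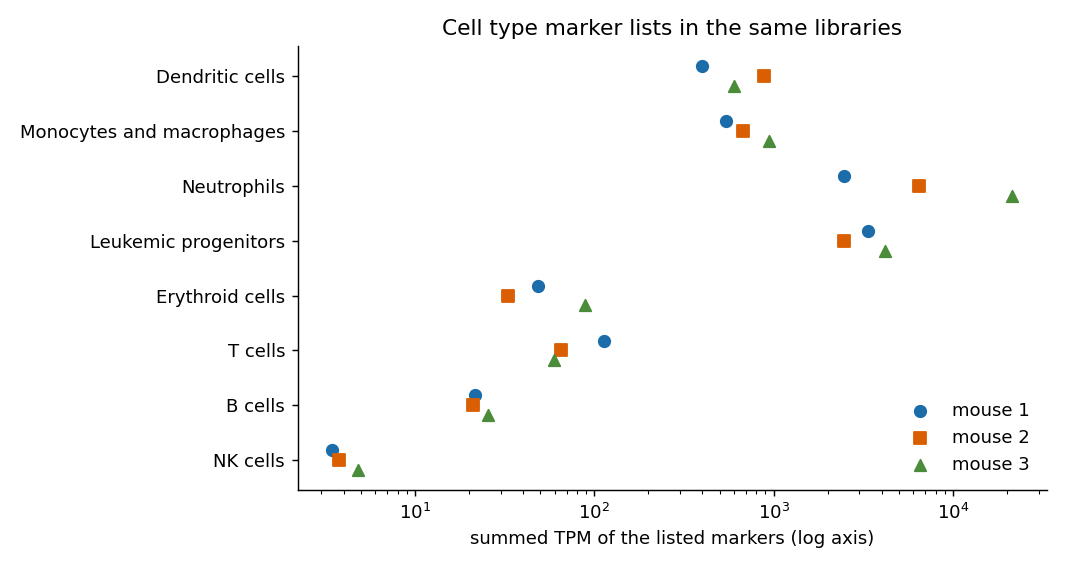
Summed TPM of the markers of each cell type on a log axis, 1 point per mouse. Neutrophil sums run from 2477 to 21460 TPM and dendritic sums from 399 to 879.7 TPM, while B cell and NK cell sums stay at or below 25.5 TPM.

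Among the 10 genes, Cd47 and Cd44 were the most abundant. Cd47 (ENSMUSG00000055447.19, GRCm38 chr16:49800533-49915010, plus strand) stood at 471, 353 and 354 TPM in mice 1, 2 and 3, a mean of 393 ± 68.1 TPM (SD, n = 3) that exceeded 98.0% of expressed genes. Mouse 1 was high and the other mice were alike, with 1.34-fold between the highest and lowest. The table holds Cd47 on 2 rows, which were summed; the larger row carried 94.9%, 94.9% and 95.6% of the sum. The gene has 10 annotated transcripts, and what separates the rows is not given in the sources used here.

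Cd44 (ENSMUSG00000005087.17, chr2:102811141-102901665, minus strand), whose splice variants differ in their extracellular stem, was at 195, 226 and 206 TPM. Its mean of 209 ± 15.8 TPM was below that of Cd47, and the ranges of the 2 genes did not overlap. With an SD of 0.11 log2 units it was among the steadiest of the 10 genes, and gene-level values do not separate its 9 annotated transcripts.

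Genes around this pair were uneven. Sirpa, the CD47 receptor of myeloid cells, was itself expressed at 24.9, 28.2 and 45.5 TPM, and Cd47 exceeded it by 18.9, 12.5 and 7.78 times in mice 1, 2 and 3. This ratio within a library does not depend on how the library was scaled. Of the 14 listed partners of CD47 and CD44 with a row, 10 were detected in every mouse. The highest were Cd74, which is the invariant chain of class II molecules and associates with CD44 (6391, 10438 and 7189 TPM), Calr, a pro-engulfment signal when it reaches the surface (mean 758 ± 70.7 TPM), and Srgn, a proteoglycan of granules (626 ± 27.6 TPM). Thbs1, a secreted ligand of CD47, had the widest spread, from 0.780 TPM in mouse 1 to 7.78 TPM in mouse 3. The hyaluronan receptor Hmmr, at 40.9 ± 5.38 TPM, was exceeded by Cd44 by 4.43 to 6.31 times. Hyaluronan synthases were low: Has1 and Has2 stayed under 0.2 TPM and Has3 was at 1.35 to 1.49 TPM.

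Myeloid receptors spanned both tiers. Clec12a (ENSMUSG00000053063.11, chr6:129342691-129365303, plus strand), an inhibitory C-type lectin, was at 120.5, 167 and 200.2 TPM, a mean of 163 ± 40.1 TPM. Mouse 1 was lowest and mouse 3 highest, 1.66-fold apart. The same order of mice was shown by 9.99% of expressed genes, and by 16.0% after scaling the mice to a common upper quartile of expressed genes. It was shown by markers of several cell types: 7 of 8 for neutrophils, 6 of 8 for B cells, 5 of 8 for T cells, 4 of 11 for monocytes and macrophages, 2 of 8 for dendritic cells and 1 of 5 for NK cells. It was shown by 0 of 9 progenitor genes and 0 of 6 erythroid genes. Whether such cells contribute to the order of Clec12a was not tested. Among 14 other C-type lectins, 13 were detected in every mouse. The highest were Clec9a, a receptor of dendritic cells for dead cells (184, 415 and 273 TPM; also on the dendritic list), Clec2d (128 ± 13.9 TPM) and Clec1a (43.3 ± 15.9 TPM). Clec7a, the β-glucan receptor Dectin-1, was at 15.7, 31.5 and 35.8 TPM, and Clec12a exceeded it by 7.66, 5.32 and 5.59 times. Clec5a was the most variable, at 6.69, 10.6 and 28.3 TPM.

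Havcr2 (ENSMUSG00000020399.14, chr11:46454935-46481255, plus strand) stood at 111, 118 and 78.6 TPM, a mean of 103 ± 21.1 TPM. Mouse 3 was low and the others were within 1.06-fold of each other. Lgals9, which encodes galectin-9, a ligand of TIM-3, was expressed in the same libraries at 84.4, 62.0 and 97.7 TPM. The ratio of Havcr2 to Lgals9 was therefore above 1 in mice 1 and 2 (1.32 and 1.91) and below 1 in mouse 3 (0.805). The other TIM family genes were low: Timd4 was at 7.29, 5.45 and 1.59 TPM, and Havcr1 and Timd2 stayed under 0.6 TPM in every mouse.

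Cd33 (ENSMUSG00000004609.11, chr7:43524216-43544428, minus strand), a sialic acid receptor, was far lower, at 11.97, 7.65 and 13.3 TPM with a mean of 11.0 ± 2.96 TPM. The mean of Havcr2, the next gene above it, was 9.35 times as high, and their ranges did not overlap. Mouse 2 was low, 1.74-fold below mouse 3. This order of mice was found in 10.3% of expressed genes (14.5% after upper-quartile scaling). Among the marker lists it was found in 6 of 6 erythroid genes, 4 of 11 genes of monocytes and macrophages, 3 of 9 progenitor genes (Mpo, Elane and Prtn3) and 1 of 5 NK cell genes. It was found in 0 of 8 markers each of neutrophils, dendritic cells, B cells and T cells. The part of any of these cells in the level of Cd33 was not tested. Of 8 other Siglec genes with a row, 5 were detected in every mouse. Siglecg (14.1, 29.3 and 21.4 TPM) had a higher mean than Cd33, Siglec5 was at 4.61, 5.38 and 8.34 TPM, and Siglece at 2.99, 4.79 and 9.64 TPM. Cd33 exceeded Siglece by 3.997, 1.60 and 1.38 times.

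Phosphatases and adaptors that such receptors use were expressed as well, and all 8 listed genes were detected in every mouse. Inpp5d, the lipid phosphatase SHIP, had a mean of 404 ± 79.8 TPM, Tyrobp, the adaptor DAP12, 399 ± 88.7 TPM, and Hmgb1, a nuclear protein that TIM-3 can bind when released, 378 ± 28.9 TPM. Ptpn6, the phosphatase SHP-1, was at 187, 183 and 213 TPM. Tyrobp was the most variable of the 8, at 298, 435 and 464 TPM.

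Il1rap (ENSMUSG00000022514.14, chr16:26581704-26730117, plus strand) was low and the steadiest of the 10 genes. It stood at 10.1, 8.90 and 9.13 TPM, a mean of 9.36 ± 0.613 TPM, and its SD of 0.08 log2 units exceeded that of only 11.9% of expressed genes. Il1r1, the ligand-binding partner, was not steady: it stood at 24.6, 8.32 and 6.29 TPM. The ratio of Il1rap to Il1r1 was 0.409 in mouse 1, 1.07 in mouse 2 and 1.45 in mouse 3. The order of the 2 genes therefore differed in mouse 1 from the other mice. Il1rl1, the IL-33 receptor that also uses IL1RAP, was at 7.47, 9.92 and 11.4 TPM.

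Of 19 listed genes with a row for receptors of the IL-1 family, their ligands and their signalling adaptors, 14 were detected in every mouse. The highest were the kinase Irak1 (108 ± 19.0 TPM), the adaptor Myd88 (61.7 ± 11.4 TPM) and the IL-18 receptor chain Il18rap (56.4 ± 13.7 TPM). Il1b, the cytokine itself, had the widest spread of the list, at 4.88, 26.1 and 14.9 TPM. Il33 was at 0, 0.0293 and 0 TPM.

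Cd38 (ENSMUSG00000029084.5, chr5:43868553-43912375, plus strand) was the lowest of the 10 genes in every mouse. It was at 2.96, 4.09 and 2.69 TPM, a mean of 3.25 ± 0.742 TPM that exceeded 17.8% of expressed genes. In mice, unlike humans, the protein marks stem cells more than committed progenitors. Mouse 2 was high, 1.52-fold above mouse 3, and the range did not overlap that of Cd80, the next gene above. Bst1, its neighbour and relative, was at 13.1, 17.4 and 15.4 TPM, so Cd38 was 0.226, 0.235 and 0.175 times as high. Among 9 listed genes of NAD and adenosine handling, 7 were detected in every mouse. Nadk (112 ± 8.59 TPM), Entpd1, which degrades extracellular ATP and is known as CD39 (48.7, 114 and 74.8 TPM), and Pecam1, a ligand of CD38 (41.1 ± 1.83 TPM), were highest. Nt5e, the next enzyme of the adenosine pathway, stayed under 0.5 TPM. Art2a-ps was the most variable, at 2.04, 11.7 and 8.27 TPM.

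B7 family genes lay in both tiers. Cd86 (ENSMUSG00000022901.13, chr16:36603869-36666081, minus strand), a costimulatory ligand, stood at 104, 149.7 and 115 TPM, a mean of 123 ± 23.7 TPM. Cd80 (ENSMUSG00000075122.5, chr16:38455561-38496335, plus strand), which binds the same T cell receptors, was at 4.53, 11.2 and 9.86 TPM, a mean of 8.54 ± 3.54 TPM. Cd86 exceeded Cd80 by 23.0, 13.3 and 11.7 times. Both were lowest in mouse 1 and highest in mouse 2.

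Cd80 had the widest spread of the 10 genes, an SD of 0.62 log2 units, larger than that of 94.3% of expressed genes. The spread rests on mouse 1: it was 2.48-fold below mouse 2, while mice 2 and 3 were within 1.14-fold. Cd80 was the only 1 of the 10 genes with at least 2-fold between its highest and lowest mouse, a distance reached by 13.8% of expressed genes. At least 1.5-fold was reached by 5 of 10 (Cd80, Cd33, Clec12a, Cd38 and Havcr2), against 35.1% of expressed genes. After upper-quartile scaling it was reached by 4 (Cd80, Cd33, Clec12a and Cd86), against 33.2%, as Cd38 and Havcr2 came below 1.5-fold and Cd86 above it. The order of mice of Cd86, Cd80 and Cd44 was found in 14.4% of expressed genes (19.99% after that scaling). It was found in 6 of 8 dendritic markers, 2 of 11 of monocytes and macrophages, 1 of 8 of neutrophils and 1 of 8 of T cells. As deposited, 0 of 9 progenitor genes, 0 of 8 B cell, 0 of 5 NK cell and 0 of 6 erythroid markers had it. The part of dendritic cells, which carry both ligands, was not tested.

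Cd274 (ENSMUSG00000016496.7, chr19:29367455-29388095, plus strand) was at 12.1, 11.6 and 9.16 TPM, a mean of 10.9 ± 1.56 TPM. Its range overlapped those of Cd33 and Il1rap. Within a mouse, Cd274 was above Il1rap in each of the 3, and Cd33 was above Cd274 in 1 of the 3. Mouse 3 was lowest. Pdcd1lg2, the other PD-1 ligand, was near the detection threshold at 1.402, 0.853 and 1.25 TPM, and Cd274 exceeded it by 8.62, 13.6 and 7.31 times. All 12 genes of PD-L1 regulation with a row were detected in every mouse. Ifngr1, a chain of the interferon-γ receptor, was at 256, 496 and 328 TPM, Nfkb1 at 304, 223 and 168 TPM and Myc at 258, 167 and 160.4 TPM.

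Other ligands and receptors of T cell control were counted from lists. Of 18 other ligands with a row, 11 were detected in every mouse, and 1, Vtcn1, was listed at 0 in all. The highest were 4632428N05Rik, an older symbol of Vsir, the gene of the checkpoint VISTA (59.0, 96.0 and 125.8 TPM), Lgals9 (81.3 ± 18.0 TPM) and Tnfrsf14 (80.4 ± 15.6 TPM). Cd276 had the widest spread, at 5.65, 2.13 and 0.801 TPM. Of 12 receptors best known on T cells, 8 were detected in every mouse and 6 stayed under 5 TPM in all. Btla, which is also found on dendritic cells and binds the Tnfrsf14 protein, was at 144, 178 and 122 TPM. Cd27 (47.4 ± 3.45 TPM) and Tigit (18.1 ± 4.48 TPM) followed. Pdcd1, the PD-1 gene, was at 2.54, 0.990 and 0.839 TPM. Of the 8 T cell markers, Cd3e stayed under 1 TPM and Thy1 was at 82.0, 32.0 and 23.3 TPM. Thy1 was the only 1 of the 8 that fell from mouse 1 to 2 to 3, and 5 of the 8 rose in that order.

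**Figure D3:**
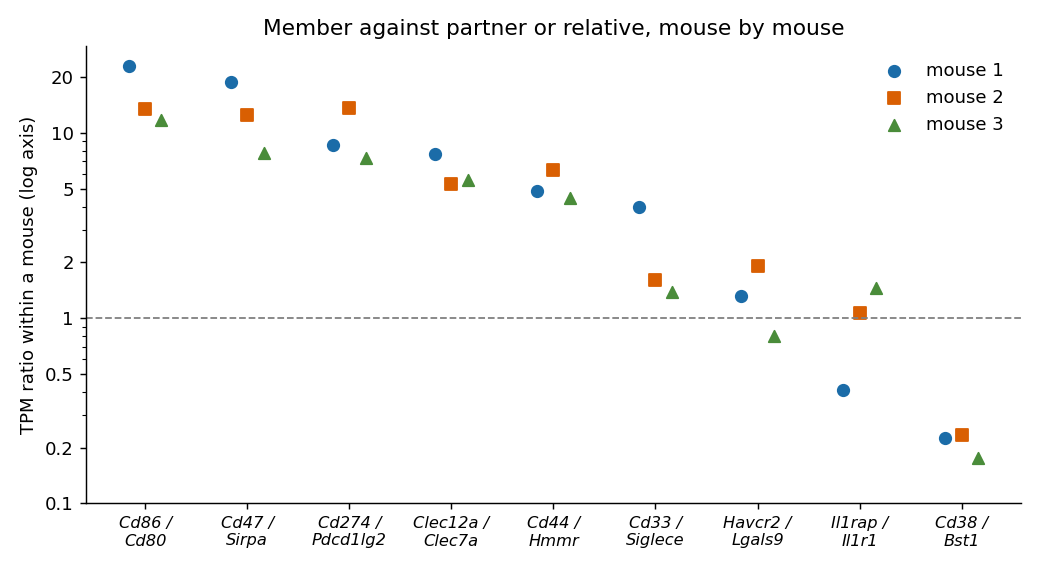
TPM of each gene divided by that of its partner or relative in the same mouse, on a log axis, 1 point per mouse; the dashed line marks equal levels. The ratio is above 1 in every mouse for 6 pairs and below 1 in every mouse for Cd38 with Bst1, while Havcr2 with Lgals9 and Il1rap with Il1r1 lie on both sides.

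Other surface targets of myeloid leukemia covered a wide range. Of 19 listed genes with a row, 17 were detected in every mouse. Cd52, a small surface glycoprotein, was highest at 612, 1242 and 1079.6 TPM, followed by Cd24a (633 ± 55.4 TPM) and Ly6e (520.1 ± 30.8 TPM). Itgam, an integrin of mature myeloid cells, had the widest spread, at 13.4, 23.6 and 60.0 TPM. Il3ra, the IL-3 receptor chain CD123, was at 33.1, 30.7 and 24.3 TPM.

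In order of mean level, the 10 genes ran Cd47, Cd44, Clec12a, Cd86, Havcr2, Cd33, Cd274, Il1rap, Cd80 and Cd38. Ranges of neighbours did not overlap at 3 steps, between Cd47 and Cd44, between Havcr2 and Cd33 and between Cd80 and Cd38. At the other 6 steps they overlapped, although Cd44 was above Clec12a, Clec12a above Cd86, and Cd274 above Il1rap in each of the 3 mice. Cd86 was above Havcr2 in 2 of the 3 mice. Cd33 was above Cd274, and Il1rap above Cd80, in only 1 of the 3. Cd47, Cd44 and Clec12a were the highest in this order in every mouse.

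The 10 genes did not share 1 order of mice. Mouse 1 was highest for 3, mouse 2 for 5 and mouse 3 for 2, against 48.6%, 31.1% and 20.3% of expressed genes. After upper-quartile scaling, which shifted mice 1, 2 and 3 by -0.08, 0.02 and 0.07 log2 units, the counts were 1, 6 and 3, against 35.6%, 33.9% and 30.4%. That scaling kept the order of mice for 7 genes and changed it for Cd274, Il1rap and Cd38. The median SD of the 10 genes was 0.26 log2 units, against 0.21 over expressed genes. Between pairs of the 10 genes, the most alike in the pattern over 3 mice were Cd38 and Cd86, with a root mean square difference of 0.10 log2 units after centring, and the least alike were Cd33 and Cd80, at 0.71.

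**Figure D4:**
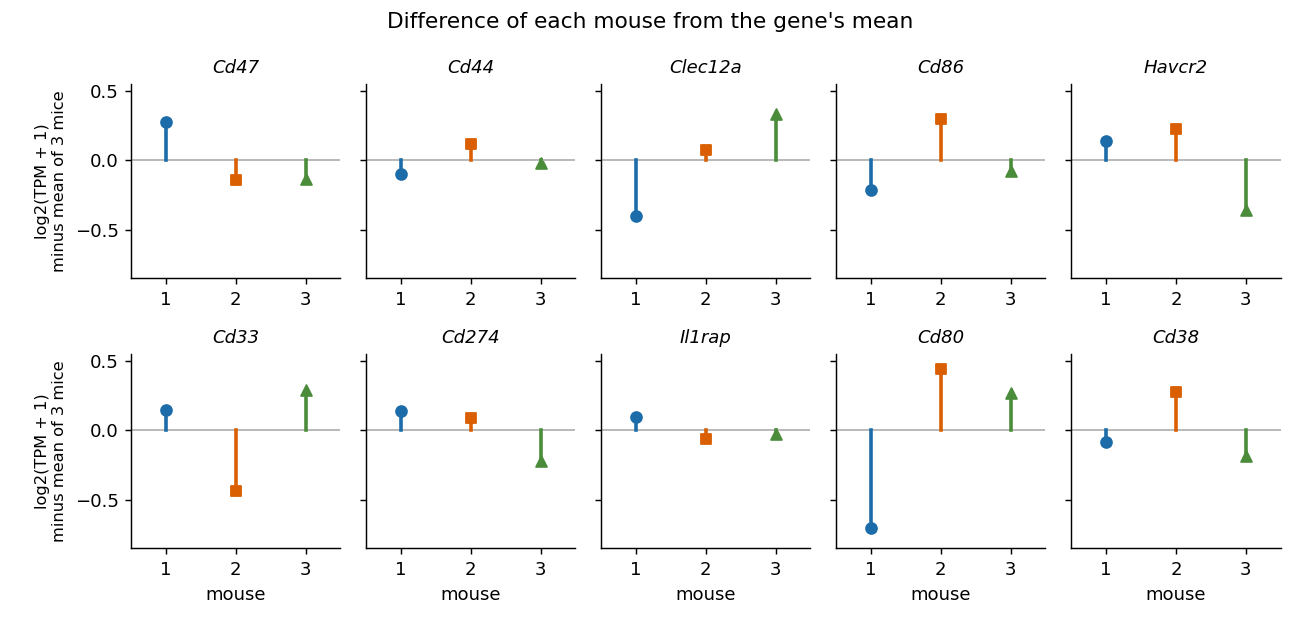
Difference of each mouse from the gene's own mean over 3 mice, in log2(TPM + 1) units, 1 panel per gene on a shared axis. Cd80 lies furthest below its mean in mouse 1, Cd33 is lowest in mouse 2, Clec12a is lowest in mouse 1 and highest in mouse 3, and Il1rap and Cd44 stay close to 0.

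Genes with the most similar pattern were named by the same root mean square difference, among the 9514 to 9515 other genes with a mean of at least 10 TPM and with only 3 mice behind each pattern. For Cd80 they were Egr1 (74.5, 161 and 142 TPM) and Ccl5 (23.5, 52.4 and 45.0 TPM), and 27 genes lay within 0.1 log2 units. For Cd33 they were Gfi1b (25.7, 17.3 and 28.9 TPM) and Zfpm1 (32.3, 21.9 and 36.6 TPM), with 81 genes within that distance, and for Clec12a Ptpn5 and 2210404O07Rik, with 79. Flat genes have many neighbours: 3145 genes were as close to Il1rap.

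By position, 4 of the 10 genes lie on chromosome 16 (Il1rap, Cd86, Cd80 and Cd47), which holds 3.15% of expressed genes with an annotated position. Cd86 and Cd80, which share their order of mice, are on opposite strands of it. None of the 10 overlaps another protein-coding gene in the annotation. Antisense genes overlap Cd38, Il1rap and Cd274, and the 2 with a row, Gm16015 (Cd38) and Gm20319 (Il1rap), had means of 0.774 and 0.488 TPM. Whether the quantification used strand is not given in the sources used here.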

How the data were processed

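RNA of 3 leukemias (1 group) was measured by paired-end sequencing with 150 nt reads. The labels name both ribosomal depletion and an mRNA kit. TPM keeps no depth, so no counting error can be given. The authors deposited 1 table of linear values per symbol that is named log2 FPKM, but whose columns sum to 929731, 927169 and 928490, and these deposited values were therefore read as TPM. The submitters' processing notes name kallisto and mm10, with no role or version. The table also holds 3 per-sample columns of another series, which were not used. Of 28987 rows, 822 with no symbol or a date in its place were left out (0.734% to 0.786% of each sum), and values of 90 symbols on several rows were summed. Positions and 3′ UTRs are from GENCODE M21 (GRCm38, the same build as mm10). Levels were put on the log2(TPM + 1) scale, detection was at 1 TPM, and percentiles are over genes with a mean of at least 1 TPM. Functions were tested on simulated data. The 10 genes, 11 context lists, 8 marker lists and 9 pairs were chosen with earlier results of these data known. Named list genes are the 3 highest, the widest in SD and those in pairs; other named list genes were chosen after their values were seen, and some items are not reported here. Similar patterns were the 2 nearest genes. Mice are numbered by sample record. SDs hold the spread between animals together with that of preparation and sequencing. Software was matplotlib 3.10.9, pandas 2.3.3, numpy 2.4.6 and Python 3.11.15.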

Additional observations from a re-analysis of the deposited data

How the results depend on the processing

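No paired analysis was possible because all mice belong to 1 group. All 10 genes stayed detected after upper-quartile scaling. At a threshold of 5 TPM, 8 did, Cd80 and Cd38 falling short. A threshold of 0.1 TPM or leaving out a mouse also gave 10, but neither could lower the count. The median level of 5.19 lay between 5.13 (pseudocount 0.1) and 5.24 (without mouse 3). The median SD of 0.256 ranged from 0.179 (without mouse 2) to 0.275 (without mouse 3), where an SD over 2 mice is in itself less certain; pseudocount and scaling gave 0.288 and 0.259. The 6-mer search, chosen after seeing the data, gave 4 genes in place of 0 because the motif is shorter. The difference between the mice that were highest and lowest as deposited kept its sign for all 10 genes after upper-quartile scaling. A change of pseudocount cannot turn this sign, so those recomputations are no check of it. Mean levels moved by more than their SD with a pseudocount of 0.1 for Cd38 and Il1rap only, and level percentiles moved in 18 of 19 recomputations with the set of genes they are ranked in. Leaving out a mouse moved none of the 27 recomputed pair ratios by more than its SD. This could not have come out otherwise, because the median of 3 ratios cannot move that far when 1 is left out. The 27 recomputations therefore do not show that the ratios are stable.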
